A study of Sus scrofa with 15 samples.

Results

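The transcripts of 10 tetraspanin genes were followed in porcine natural killer (NK) cells: *CD9*, *CD37*, *CD53*, *CD63*, *CD81*, *CD82*, *CD151*, *TSPAN13*, *TSPAN14* and *TSPAN31*. They were chosen by gene symbol, and all 10 were found among the 29886 genes of the count table. Of these, 8 passed the filter on low counts, and *CD82* and *TSPAN13* did not. The table holds 23 further tetraspanin genes, of which 6 passed the filter.

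Tetraspanins are small proteins that span the membrane several times and that bind each other and selected partners, among them integrins, metalloproteases and signalling receptors, in microdomains of the plasma membrane and of endosomes. In leukocytes they take part in adhesion, migration, antigen receptor signalling and granule release. CD63 appears on the surface of a cytotoxic lymphocyte when its granules fuse with the plasma membrane.

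RNA came from 3 populations that were sorted from the same 5 pigs, all 6 months old. Blood gave CD8α high cells (conventional NK, or cNK, cells), and liver gave both CD8α high cells and CD8α dim cells, the latter termed liver-resident NK, or lrNK, cells. Each population of each pig gave 1 library, so there were 15 libraries. All cells were gated as CD3 negative and CD172a negative, which is meant to remove T cells and myeloid cells, and the level of CD8α separated the populations. Liver cells came from a final flush through the portal vein, after a perfusion that the authors thought likely to remove most circulating immune cells. The sorted lrNK population is thus defined by a surface level and a compartment, not by a test of residence. The authors also stained sorted cells for the transcription factors Eomes and T-bet, and located cells with the lrNK marker NKp46 in liver sinusoids.

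Library totals ran from 2003499 to 5680221 counts, and the smallest were lrNK libraries. Levels are given as CPM, counts scaled to a common library size with TMM factors, and reads came from the 3′ end of transcripts, so a CPM does not grow with transcript length and levels of different genes were compared without division by length. In these bulk samples, fewer cells of a type and less RNA per cell cannot be told apart. The sum of 8 NK cell markers was 2428 to 5157 CPM in the 15 libraries, and the sum of *EOMES* and *CXCR6* was 799.4 to 1613 CPM in lrNK libraries, 20.6 to 74.0 CPM in blood and 19.4 to 371 CPM in liver CD8α high libraries. Hepatocyte markers summed to at most 9.74 CPM and monocyte and macrophage markers to at most 25.6 CPM in any library. Erythroid markers, mostly *HBB*, summed to 316 CPM in the blood library of pig 4, 56.6 CPM in the liver CD8α high library of pig 1 and at most 24.1 CPM in the others. Of 10 B cell markers, 9 were in the table. Their sum was higher in every lrNK library (287 to 904 CPM) than in every blood (62.1 to 166 CPM) and liver CD8α high library (32.9 to 70.8 CPM), while *CD79A* was at 0 throughout. *BLK* was not higher in lrNK cells than in blood, at means of 28.65 and 29.09 CPM, beside 17.09 CPM in liver CD8α high cells. The lrNK library of pig 3 stood apart from the other lrNK libraries in *CXCR6* (86.2 CPM against 607 to 837 CPM), and the liver CD8α high library of pig 1 had the highest *EOMES* (218 CPM) and *CXCR6* (153 CPM) of its population.

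In all 3 populations, 3 of the 10 genes gave most of their summed transcripts. *CD53*, *CD63* and *CD37* together made up 91.6 ± 1.66% (SD, n = 5) of the summed CPM of the 10 genes in blood, 90.7 ± 1.07% in liver CD8α high cells and 90.9 ± 1.63% in lrNK cells. The sum itself was 2446 ± 194 CPM in blood, 2449 ± 147 CPM in liver CD8α high cells and 2376 ± 284 CPM in lrNK cells, and its ranges overlapped. By mean CPM over all libraries, *CD53* stood at rank 81, *CD63* at rank 216, *CD37* at rank 902 and *CD81* at rank 1739 of 10939 tested genes. The order *CD53* above *CD63* above *CD37* above *CD81* held in 15 of 15 libraries. *CD81* was above *TSPAN14* in 13 libraries, *TSPAN14* above *TSPAN31* in 11, and *TSPAN31* above *CD151* in 15. *CD9*, *CD82* and *TSPAN13* were the lowest, at means of 3.63, 1.16 and 1.76 CPM, with no fixed order.

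Populations were compared by the quasi-likelihood test of edgeR, adjusted after Benjamini and Hochberg over 10939 genes, and a gene was called at an adjusted p under 0.05. None of the 8 tested members was called in any of the 3 comparisons. Between lrNK cells and blood cNK cells, the test called 8.62% of all tested genes as higher and 9.6% as lower in lrNK cells. Between lrNK cells and liver CD8α high cells it called 6.96% as higher and 7.68% as lower, and between liver CD8α high and blood cells 0.064% in either direction. With 8 genes, a count of 0 was not read as a departure from these shares. At an unadjusted p under 0.05 there were 2 members (*CD81* and *TSPAN31*) in lrNK cells against blood, 1 (*CD9*) in lrNK cells against liver CD8α high cells, and 1 (*TSPAN14*) in liver CD8α high cells against blood. Of all tested genes, 29.5%, 24.9% and 5.02% reached that level in these comparisons, so such counts were not read as a result about the members. DESeq2, run on the same counts, called 0 members, 2 members (*CD9* and *TSPAN13*, both higher in lrNK cells) and 0 members in these comparisons, where it called 8.96% and 7.52% of its tested genes as higher in lrNK cells than in blood and in liver CD8α high cells. The lrNK libraries are shared by the first 2 comparisons.

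The median log2 fold change of the 8 members was 0.16 in lrNK cells against blood, -0.04 in lrNK cells against liver CD8α high cells and -0.03 in liver CD8α high cells against blood. The median size of the change, whatever its sign, was 0.39, 0.18 and 0.22, beside 0.45, 0.39 and 0.22 over all tested genes. The 95% interval lay within a 2-fold change in either direction for 4 of 8 members in the first comparison and for 5 of 8 in each of the others. Over all tested genes this was so for 4020, 4371 and 5683 of 10939. *CD53*, *CD63*, *CD37* and *CD81* were among these members in all 3 comparisons.

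**Figure D1:**
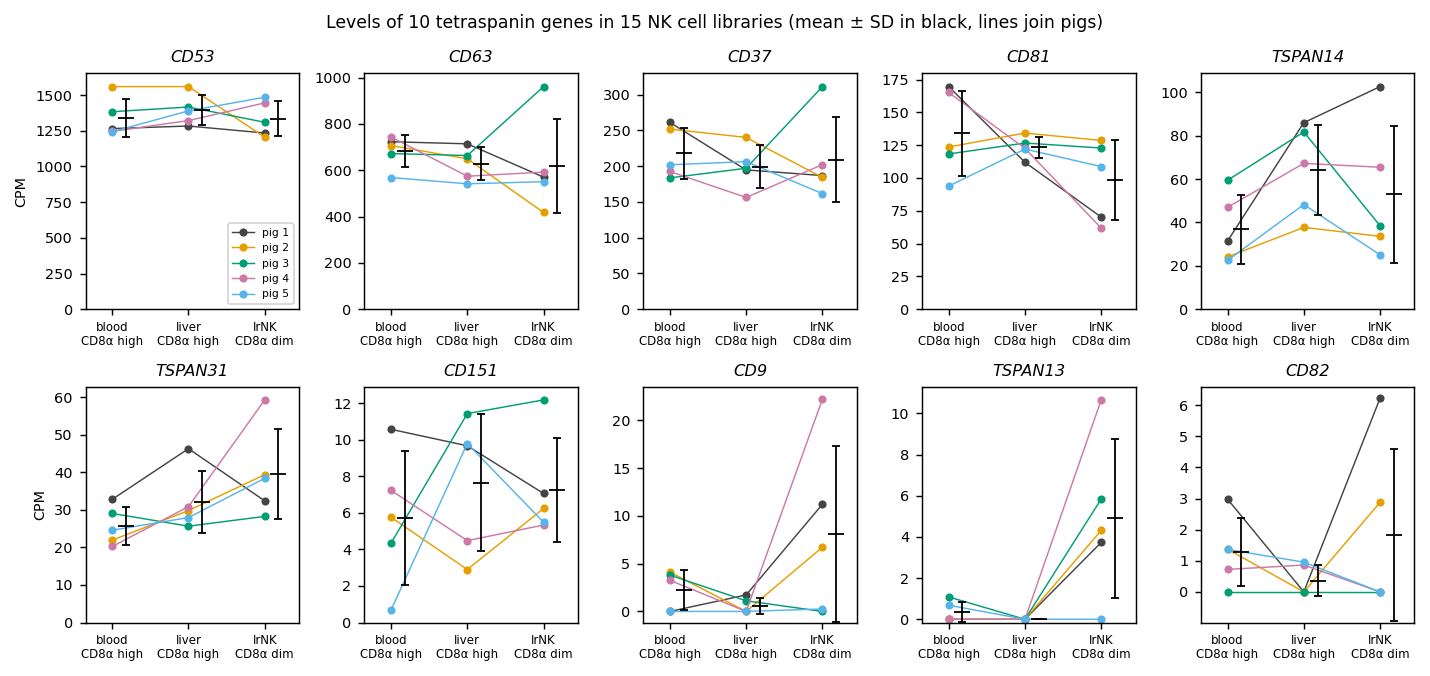
Levels of the 10 tetraspanin genes in CPM (vertical axes, linear, each with its own scale) in the CD8α high cells of blood, those of liver and the CD8α dim (lrNK) cells. Each point is 1 library, lines join the libraries of a pig, and black bars show the mean ± SD of 5 pigs. *CD53* stayed between 1205 and 1559 CPM in all libraries. In blood and liver CD8α high libraries *CD9* did not exceed 4.11 CPM and *TSPAN13* did not exceed 1.085 CPM. In the lrNK library of pig 4 they reached 22.2 and 10.7 CPM.

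*CD53*, a tetraspanin restricted to leukocytes that keeps L-selectin on the surface of lymphocytes, was the most abundant member (chromosome 4, 109306552 to 109335876, Sscrofa11.1). Blood libraries had 1265, 1559, 1383, 1245 and 1243 CPM in pigs 1 to 5. In liver CD8α high cells it was 1283, 1559, 1416, 1321 and 1389 CPM, and in lrNK cells 1234, 1205, 1309, 1445 and 1484 CPM. The 3 ranges overlapped, and no library lay outside 1205 to 1559 CPM. The lrNK level was 0.998 times that of blood, with a 95% interval of 0.834 to 1.19 times (edgeR adjusted p = 0.992). Against liver CD8α high cells it was 0.959 times, with an interval of 0.801 to 1.15 times (edgeR adjusted p = 0.833). Liver CD8α high cells were above blood in 5 of 5 pigs, by 1.04 times (interval 0.87 to 1.25 times, edgeR adjusted p = 0.9996).

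*CD37*, a leukocyte tetraspanin best known from B cells, where it restrains signalling and organizes integrins, was measured at 261, 252, 184, 193 and 202 CPM in blood (chromosome 6, 54431413 to 54448195). The liver CD8α high libraries held 195, 240.2, 197, 156 and 206 CPM. The lrNK libraries held 187, 184, 311, 202 and 162 CPM. Pig 3 was the lowest of the blood libraries and the highest of the lrNK libraries, and the ranges overlapped. The fitted log2 fold change of lrNK cells was -0.06 ± 0.18 (SE) against blood and 0.07 ± 0.18 against liver CD8α high cells (edgeR adjusted p = 0.868 in both). Without the lrNK library of pig 3 these were -0.23 ± 0.16 and -0.11 ± 0.16 (edgeR adjusted p = 0.335 and 0.723), and the second difference also changed sign without the liver CD8α high library of pig 4.

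*CD63*, the tetraspanin of late endosomes, lytic granules and exosomes, came second in level (chromosome 5, 21172275 to 21176225). Blood libraries held 723, 706, 672, 743 and 568 CPM in pigs 1 to 5. Liver CD8α high libraries held 714, 649.5, 664, 574 and 541.5 CPM, below the blood library of the same pig in 5 of 5 pigs. The lrNK libraries held 570.2, 418, 961, 592 and 551 CPM. The lowest and the highest *CD63* level of the whole series were both lrNK libraries, those of pigs 2 and 3, and the SD was 203 CPM in lrNK cells beside 68.98 CPM in blood and 69.9 CPM in liver CD8α high cells. The log2 fold change was -0.14 ± 0.18 for lrNK cells against blood and -0.02 ± 0.18 against liver CD8α high cells (edgeR adjusted p = 0.654 and 0.961). For liver CD8α high cells against blood it was -0.12 ± 0.18 (edgeR adjusted p = 0.9996). Leaving out the lrNK library of pig 3 gave -0.34 ± 0.14 against blood and -0.24 ± 0.14 against liver CD8α high cells, and neither was called (edgeR adjusted p = 0.0875 and 0.296).

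The ratio of *CD53* to *CD63* was 1.98 ± 0.248 in blood, 2.24 ± 0.293 in liver CD8α high cells and 2.31 ± 0.595 in lrNK cells. In the lrNK library of pig 3 it was 1.36, the lowest of all libraries, beside 2.16 to 2.88 in the other lrNK libraries.

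*CD81*, which takes part in antigen receptor signalling of B cells and inhibits NK cells when it is crosslinked, was the fourth member by level (chromosome 2, 1625728 to 1641662). In blood it was 170, 124, 118, 165 and 93.8 CPM. In liver CD8α high cells it was 112, 134, 127, 122.5 and 122 CPM, the narrowest spread of any member in any population (coefficient of variation 6.56%). In lrNK cells it was 70.2, 129, 123, 61.8 and 109 CPM. The lrNK libraries of pigs 1 and 4 lay below every other library, and the remaining 3 lay above the blood library of the same pig. The mean lrNK level was thus lower than in blood while 3 of 5 pigs moved upward. The fitted log2 fold change was -0.45 (95% interval -0.89 to -0.01, edgeR adjusted p = 0.157). Against liver CD8α high cells *CD81* was lower in 5 of 5 pigs, by a log2 fold change of -0.33 (interval -0.77 to 0.11, edgeR adjusted p = 0.362).

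*CD9*, which binds the same immunoglobulin superfamily partners as CD81, was rare (chromosome 5, 64420177 to 64459783). Blood libraries held 0, 4.11, 3.80, 3.25 and 0 CPM, and liver CD8α high libraries 1.73, 0, 1.12, 0 and 0 CPM. The lrNK libraries held 11.2, 6.72, 0, 22.2 and 0.261 CPM, which stand for 27, 14, 0, 79 and 1 counts. Pigs 1, 2 and 4 were above every blood and liver CD8α high library, and pigs 3 and 5 were not. The log2 fold change of lrNK cells was 1.84 ± 1.25 against blood (edgeR adjusted p = 0.362), or 1.02 ± 1.38 without the lrNK library of pig 4 (edgeR adjusted p = 0.695). It was 3.88 ± 1.41 against liver CD8α high cells, where the 95% interval was 0.94 to 6.82 and the adjusted p was 0.0741 by edgeR and 0.049 by DESeq2. Without the lrNK library of pig 3 the second difference was called by edgeR (4.21 ± 1.31, adjusted p = 0.0318), and without that of pig 4 it was 3.02 ± 1.5 (edgeR adjusted p = 0.219).

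B cell markers were high in the same population. Their summed level in the lrNK libraries of pigs 1 to 5 was 586, 876, 287, 904 and 346 CPM. In the same libraries *CD9* was at 11.2, 6.72, 0, 22.2 and 0.261 CPM. Of the 9 markers in the table, *MS4A1* was the most abundant in lrNK cells (152 to 475.5 CPM, beside 6.14 to 61.6 CPM in blood). Monocyte and macrophage markers summed to 6.64, 11.04, 0, 25.6 and 6.53 CPM in the same libraries. *LYZ* was the only one of them with more than 1 count in pigs 1, 4 and 5. In pig 2, *LYZ* had 9 counts, *SIRPA*, the gene of the gating antigen CD172a, had 8 and *CD68* had 6. *CSF1R*, *CD163* and *MARCO* were at 0 in all 5 lrNK libraries. Of 5 platelet markers in the table, *GP9* reached 178 CPM in lrNK libraries, while *GP1BB* was at 0 and *PPBP* and *ITGA2B* did not exceed 2.35 and 1.12 CPM. The part of B cells, monocytes and platelets in the *CD9* difference was not tested.

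**Figure D2:**
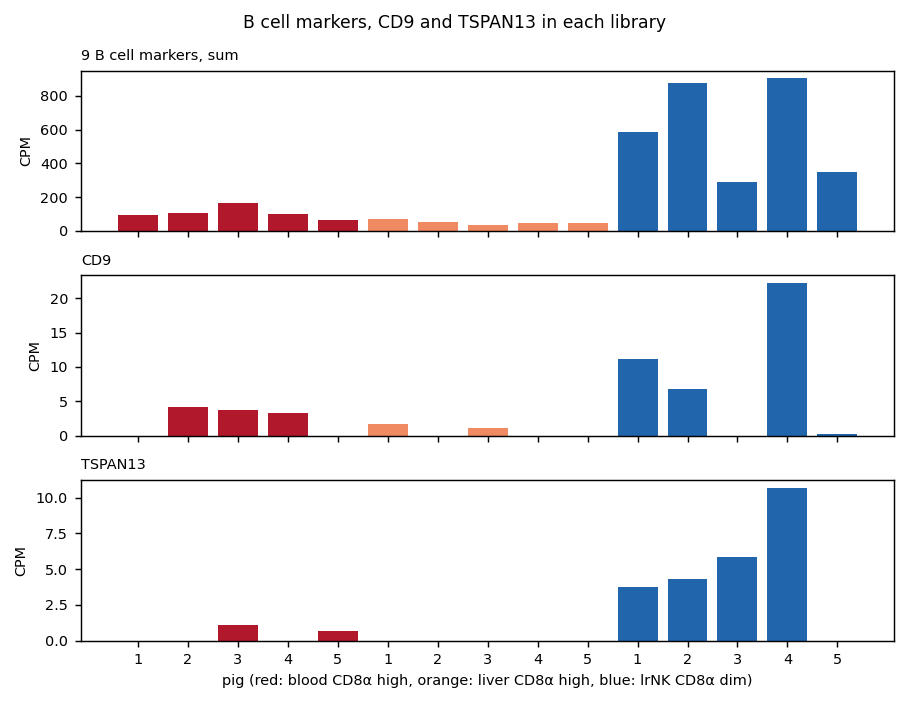
Summed CPM of 9 B cell markers (top), *CD9* (middle) and *TSPAN13* (bottom) in each of the 15 libraries, as bars from 0, with pigs 1 to 5 of each population from left to right. All 5 lrNK libraries were at 287 CPM or more in the marker sum, and the lrNK library of pig 4 was the highest in all 3 panels.

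*TSPAN13*, a tetraspanin whose function is little known, was below the filter and is given by its counts (chromosome 9, 85996381 to 86033358). There were 0, 0, 4, 0 and 2 counts in blood, 0 counts in each liver CD8α high library, and 9, 9, 12, 38 and 0 counts in lrNK cells. In CPM the lrNK libraries held 3.74, 4.32, 5.85, 10.7 and 0. It was thus found in 4 of 5 lrNK libraries, each above every library of the other populations, and not in that of pig 5. With 0 replaced by 3 counts over the group, the 68 counts against 0 gave a ratio of 33.0 between lrNK and liver CD8α high cells. The ratio was 19.5 without the lrNK library of pig 4, which held 38 of the counts. These ratios leave out the error of the lrNK counts and the spread between pigs. Mean CPM differed at p = 0.0476 against blood and p = 0.0476 against liver CD8α high cells (two-sided exact permutation tests, 6 such tests over the 2 filtered members, not adjusted, labels permuted over all libraries). With labels exchanged only within pigs, which cannot give less than 0.0625 with 5 pigs, the exact permutation p was 0.125 in both comparisons. Without a filter, edgeR gave an adjusted p of 0.00729 against liver CD8α high cells and 0.136 against blood, and DESeq2 gave 0.00111 and 0.0713. B cell markers were high in the lrNK libraries too, with sums of 586, 876, 287, 904 and 346 CPM in pigs 1 to 5. The part of other cells in this difference was not tested.

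*CD82* and *CD151* are best known for the motility of tumour cells, and CD151 binds laminin receptors of the integrin family. For *CD82* (chromosome 2, 17751153 to 17803172) there were 11, 5, 0, 2 and 4 counts in blood, 0, 0, 0, 5 and 4 in liver CD8α high cells, and 15, 6, 0, 0 and 0 in lrNK cells. These ranges overlapped, and the two-sided exact permutation test of mean CPM gave p = 0.762 for lrNK cells against blood and p = 0.444 against liver CD8α high cells, so a difference was not detectable at this depth. *CD151* (chromosome 2, 525000 to 529568) was found in every library, at 10.6, 5.76, 4.34, 7.23 and 0.682 CPM in blood, 9.67, 2.90, 11.4, 4.48 and 9.79 CPM in liver CD8α high cells and 7.06, 6.24, 12.2, 5.34 and 5.48 CPM in lrNK cells. Its groups overlapped as well. The log2 fold change of lrNK cells against blood was 0.33 with a 95% interval of -0.92 to 1.58 (edgeR adjusted p = 0.772), which includes a 2-fold difference.

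*TSPAN14*, one of the tetraspanins that carry the metalloprotease ADAM10 to the surface, was the member with the smallest unadjusted p between the CD8α high populations (chromosome 14, 82305594 to 82364675). Blood libraries held 31.4, 24.1, 59.4, 47.0 and 22.5 CPM, and liver CD8α high libraries 86.0, 37.7, 81.7, 67.2 and 48.2 CPM. The liver library was the higher in 5 of 5 pigs, although the ranges overlapped. The fold was 1.74 with a 95% interval of 1.04 to 2.90 (edgeR unadjusted p = 0.0366, adjusted p = 0.951). In lrNK cells *TSPAN14* was 103, 33.6, 38.5, 65.4 and 25.1 CPM and its range overlapped both other populations. The log2 fold change was 0.52 ± 0.36 against blood and -0.27 ± 0.35 against liver CD8α high cells (edgeR adjusted p = 0.366 and 0.711).

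*TSPAN31*, known as a gene that is amplified in sarcomas, lies on chromosome 5 (23029325 to 23038987) and shares 6619 bases with *AGAP2*. *AGAP2* held 316 counts in all libraries together, and how reads in the shared stretch were assigned is not given in the sources used here. *TSPAN31* was at 32.8, 21.9, 29.0, 20.2 and 24.6 CPM in blood, 46.3, 29.8, 25.7, 30.9 and 27.9 CPM in liver CD8α high cells, and 32.4, 39.4, 28.2, 59.3 and 38.4 CPM in lrNK cells. The 3 highest lrNK libraries, of pigs 2, 4 and 5, lay above every blood library, and in pigs 1 and 3 the lrNK library was just below that of blood. The mean was 25.7 ± 5.17 CPM in blood, 32.1 ± 8.16 CPM in liver CD8α high cells and 39.5 ± 11.9 CPM in lrNK cells. The difference of lrNK cells from blood was 1.54-fold with a 95% interval of 1.07 to 2.22 (edgeR unadjusted p = 0.0237, adjusted p = 0.0997, DESeq2 adjusted p = 0.0804). It was called without the lrNK library of pig 3 (log2 fold change 0.74 ± 0.25, edgeR adjusted p = 0.0383) and was 0.44 ± 0.25 without that of pig 4 (edgeR adjusted p = 0.265).

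**Figure D3:**
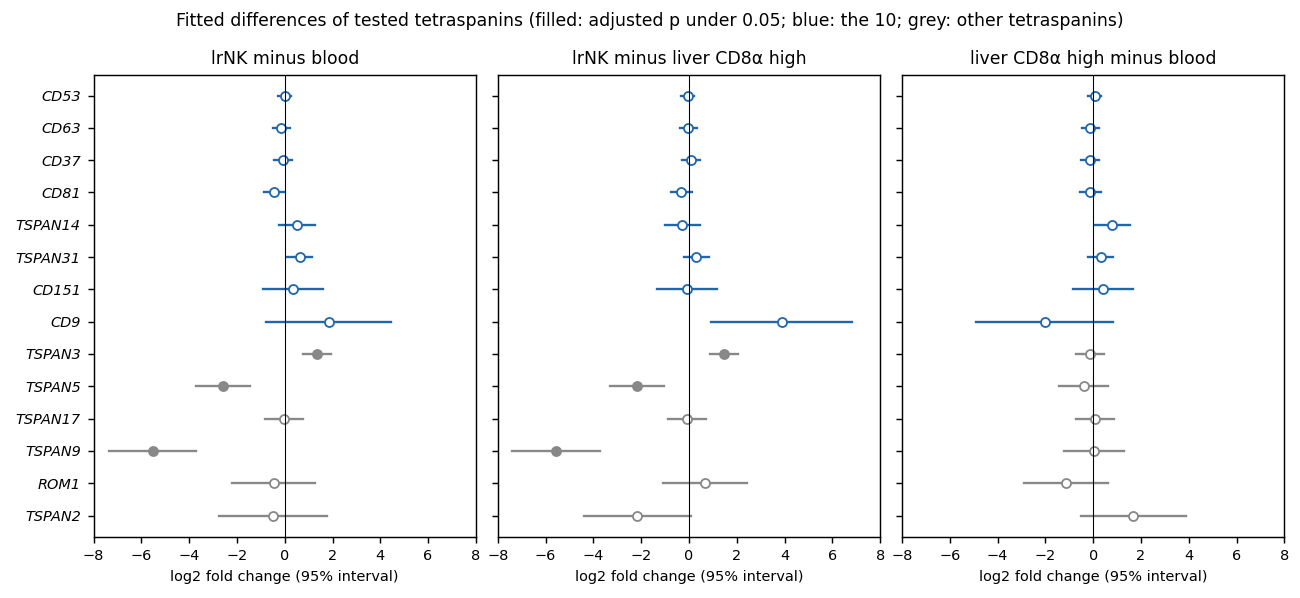
Fitted log2 fold changes with 95% intervals (horizontal axes) of the 8 tested members in blue and the 6 other tested tetraspanins in grey, for the 3 comparisons. Filled points mark an edgeR adjusted p under 0.05: *TSPAN3*, *TSPAN5* and *TSPAN9* in both lrNK comparisons, and none of the 8 members.

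Among the 23 other tetraspanins, the called ones were *TSPAN3*, *TSPAN5* and *TSPAN9*, in both lrNK comparisons, out of 6 tested. The shares of all tested genes called were 8.62% higher and 9.6% lower than in blood, and 6.96% higher and 7.68% lower than in liver CD8α high cells. Between the CD8α high populations 0 of the 6 tested were called by edgeR, and 0 of these 6 had an unadjusted edgeR p under 0.05. DESeq2 called 0 of the 23. *TSPAN3*, a widely expressed tetraspanin, was higher in lrNK cells. Blood libraries held 144, 195, 186, 168 and 163 CPM and liver CD8α high libraries 172, 152, 161, 169 and 132 CPM, while lrNK libraries held 654.5, 304, 128, 642 and 433 CPM. In 4 of 5 pigs the lrNK library was above every library of the other populations, and in pig 3 it was the lowest of all. The fold was 2.53 against blood (95% interval 1.68 to 3.81, edgeR adjusted p = 0.00182) and 2.75 against liver CD8α high cells (interval 1.83 to 4.16, edgeR adjusted p = 9.66e-04). Its share of the CPM of all 33 tetraspanins was 6.37 ± 0.664% in blood, 5.89 ± 0.673% in liver CD8α high cells and 15.1 ± 7.13% in lrNK cells, and its level was above that of *CD37* in 4 of 5 lrNK libraries. Without the lrNK library of pig 3 the log2 fold change against blood was 1.58 ± 0.19 (edgeR adjusted p = 1.78e-06), beside 1.34 ± 0.28 with it. That library also had the lowest B cell sum (287 CPM) and the lowest *CXCR6* (86.2 CPM) of the lrNK population. B cell markers were higher in the lrNK libraries too, with sums of 586, 876, 287, 904 and 346 CPM in pigs 1 to 5. The part of B cells in the *TSPAN3* difference was not tested.

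*TSPAN5*, like TSPAN14 a partner of ADAM10, was lower in lrNK cells. Blood libraries had 37.1, 17.0, 25.2, 48.4 and 40.9 CPM, liver CD8α high libraries 14.2, 14.8, 31.2, 28.6 and 39.2 CPM, and lrNK libraries 5.81, 5.28, 9.26, 0 and 8.10 CPM. No lrNK library reached the lowest library of either other population. The log2 fold change was -2.58 ± 0.55 against blood and -2.19 ± 0.55 against liver CD8α high cells (edgeR adjusted p = 0.00185 and 0.00796). *TSPAN5* shares 6940 bases with the non-coding *LOC110262186*, which held 431 counts in the 15 libraries. The log2 fold change of *LOC110262186* in lrNK cells against blood was -1.90, and it was not called (edgeR adjusted p = 0.112). The part of the shared stretch in the *TSPAN5* difference was not tested. The values of the ADAM10 partners *TSPAN14* and *TSPAN5* in lrNK cells lay apart. *TSPAN14* was at 1.44 times the blood level (interval 0.857 to 2.41 times) and *TSPAN5* at 0.167 times (interval 0.0755 to 0.369 times), though the difference between both genes was not tested.

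*TSPAN9*, first described in platelets, was close to 0 in lrNK cells, with 1, 1, 0, 0 and 0 counts, beside 12 to 53 counts in blood and 21 to 57 in liver CD8α high libraries. The 142 blood counts against 2 correspond to a level 59.2 times higher in blood, with a counting interval of 16.1 to 493 times. Against liver CD8α high cells the ratio was 62.6 (17.1 to 521), and edgeR gave adjusted p = 1.05e-04 and 1.21e-04. The sum of the platelet markers had a median of 97.0 CPM in blood and 115 CPM in lrNK libraries, most of it *GP9*, while *ITGA2B* was at 1.71 to 7.32 CPM in blood and 0 to 1.12 CPM in lrNK libraries, and the part of platelets in the *TSPAN9* difference was not tested.

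**Figure D4:**
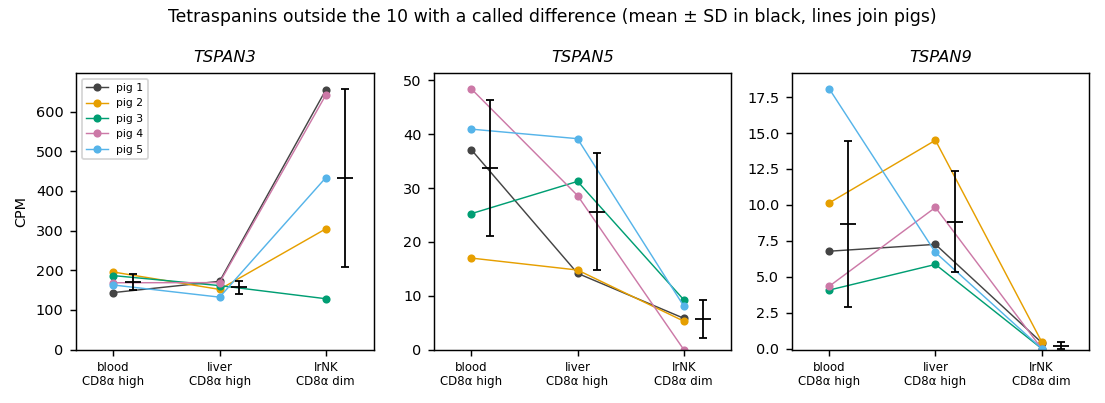
Levels of *TSPAN3*, *TSPAN5* and *TSPAN9* in CPM (vertical axes, linear) by population. Points are libraries, lines join the libraries of a pig and black bars give the mean ± SD of 5 pigs. *TSPAN5* and *TSPAN9* were lower in all 5 lrNK libraries, and *TSPAN3* was higher in 4 of them, with pig 3 the exception at 128 CPM.

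The remaining tested tetraspanins were not called with all 15 libraries in the fit. *TSPAN17*, another ADAM10 partner, was at 11.3 ± 2.84 CPM in blood, 11.8 ± 3.91 CPM in liver CD8α high cells and 11.08 ± 4.25 CPM in lrNK cells. Its fitted difference between lrNK cells and blood was -0.03 (log2, 95% interval -0.83 to 0.78, edgeR adjusted p = 0.976). *ROM1*, known from photoreceptors, ranged from 0 to 20.3 CPM. *TSPAN2* was at 0 in 4 of 5 lrNK libraries and at 7.31 CPM in that of pig 5, beside 3.45 to 13.4 CPM in liver CD8α high cells and 0.813 to 4.34 CPM in blood. With that library its log2 fold change was -0.49 ± 1.08 against blood (edgeR adjusted p = 0.817) and -2.16 ± 1.08 against liver CD8α high cells (edgeR adjusted p = 0.219). With the pig as a block these were -1.74 and -3.68 (edgeR adjusted p = 0.426 and 0.0800). Without that library the lrNK population was at 0 counts, and *TSPAN2* was called in both comparisons (edgeR adjusted p = 0.00827 and 0.0013). With 0 replaced by 3 counts over the 4 lrNK libraries, the 37 counts in blood and 149 in liver CD8α high cells then gave ratios of 7.45 and 24.8. These ratios leave out the error of the higher counts. The call was thus decided by 1 library.
Of the 17 tetraspanins below the filter, *TSPAN1*, *TSPAN7*, *TSPAN8*, *TSPAN16* and *UPK1A* were at 0 counts in all 15 libraries, which allows a mean level of up to 0.0589 CPM, counting error only.

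Several genes whose products bind tetraspanins were called. Of 28 membrane partners in the table, 22 were tested. In lrNK cells against blood 3 were higher and 8 lower, where 8.62% and 9.6% of all tested genes were. Their median log2 fold change was -0.66 beside 0.01 over all tested genes. The list was chosen with earlier results of these data known. The authors had reported *ITGA4*, *ITGAL*, *ITGB2* and *ITGB7* as lower in lrNK cells than in blood. The counts and the median were thus not read as a result about the list. The lower ones included the integrin chains *ITGA4*, *ITGB2* and *ITGAL* and the kinase *PRKCB*, which several tetraspanins bind. *ITGA4*, the α4 chain that pairs with β1 and β7, was 1567 ± 75.1 CPM in blood, 1407 ± 88.7 CPM in liver CD8α high cells and 791.5 ± 190 CPM in lrNK cells, whose libraries lay below all others (edgeR adjusted p = 7.78e-05 against blood and 5.39e-04 against liver CD8α high cells). *ITGB2* and *ITGAL*, the chains of LFA-1, were at 0.55 and 0.579 times the blood level (edgeR adjusted p = 0.00108 and 0.00925). The lrNK library of pig 3 was the highest of its population in both: its *ITGAL* (836 CPM) lay above the blood library of the same pig (712 CPM), so the ranges overlapped, and its *ITGB2* (825 CPM) was just below the lowest blood library (851.5 CPM). For *PRKCB* the ratio was 0.626 (edgeR adjusted p = 0.0277), and against liver CD8α high cells, at a ratio of 0.68, its call depended on the fit (edgeR adjusted p = 0.0852, 0.0109 with the pig as a block and 0.0481 without a filter on low counts). The others that were lower were *ITGA5*, *ITGB7*, *ZDHHC2*, which palmitoylates tetraspanins, and *CD8A*, whose protein set the gate and which is no finding. The higher ones included *PTPN6* and *SLA-DRA*, and the part of B cells in these was not tested. In lrNK cells against liver CD8α high cells, 3 partners were higher and 7 lower (6.96% and 7.68% of all tested genes). With the pig as a block, 12 partners were called in this comparison, where 1716 of 10939 tested genes were. Between the CD8α high populations 0 partners were called by edgeR and 0 by DESeq2, with 1 at an unadjusted edgeR p under 0.05. The sum of the 6 T cell markers in the table was also lower in lrNK cells. Its median was 878 CPM in blood (637 to 1203), 788 CPM in liver CD8α high cells (714 to 1076) and 291 CPM in lrNK cells (110 to 593). Most of the sum was *CD3G*, at a mean of 865, 825 and 289 CPM. *CD3E* was also lower in lrNK cells (means 10.2, 9.03 and 2.12 CPM) and did not exceed 28.0 CPM in any library. *CD3D* went the other way (means 3.78, 7.38 and 8.43 CPM) and did not exceed 14.6 CPM. *CD5* and *CD28* were at 0 in all. The part of T cells in these differences and in those of *TSPAN5* and *TSPAN9* was not tested.

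ADAM10, ADAM17, their regulators and their substrates formed a list of 12 genes, of which 9 were tested. Against blood, 1 of them was called higher in lrNK cells and 1 lower, a share near the 8.62% and 9.6% of all tested genes. With the pig as a block, 3 of the 9 were called against blood, where 2120 of 10939 tested genes were. *CD44*, an adhesion receptor that is shed from the surface, was lower in lrNK cells, at 303 ± 27.2 CPM beside 488 ± 53.8 CPM in blood and 482 ± 39.9 CPM in liver CD8α high cells, and its lrNK libraries lay below all others (edgeR adjusted p = 6.47e-04 and 9.61e-04). *CDH1*, E-cadherin, was higher, at 38.5 ± 25.2 CPM beside 7.89 ± 5.24 CPM in blood and 10.4 ± 1.98 CPM in liver CD8α high cells (edgeR adjusted p = 0.00406 and 0.0166). Its lrNK libraries ran from 11.7 to 78.3 CPM and overlapped those of blood. The metalloprotease genes themselves were not called in the fit without the pig as a block.

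Among 24 genes of endosomal sorting and exosome release, the compartments where CD63 resides, 21 were tested and 2 were lower in lrNK cells than in blood, a share near the 9.6% of all tested genes. *SCARB2*, a lysosomal membrane protein, was at 0.525 times the blood level (58.9 ± 20.1 beside 113 ± 19.8 CPM, edgeR adjusted p = 0.00511). *AP3S1*, a subunit of the adaptor AP-3 that sorts CD63 to lysosomes, was at 0.368 times (25.9 ± 13.9 beside 69.9 ± 10.4 CPM, edgeR adjusted p = 0.00124). Both were also lower than in liver CD8α high cells, where *AP3S2* and *LAMP1* were in addition higher in lrNK cells (edgeR adjusted p = 0.04 and 0.0483). Their log2 fold changes were 1.41 and 0.69. With the pig as a block these were 1.41 and 0.60, and the adjusted p lay just past the threshold (edgeR adjusted p = 0.0512 and 0.0513). The median log2 fold change of the list was -0.25 against blood, beside 0.01 over all tested genes.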

How the data were processed

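RNA from 3 sorted NK cell populations of the same 5 pigs was made into 3′ end libraries. The authors trimmed the reads with QuasR, aligned them with HISAT2 to Sscrofa11.1 and deposited unnormalized whole-number counts per gene. Which program counted the reads, whether it used strand and what it did with multiply aligned reads is not given in the sources used here, so overlapping genes are uncertain. All 15 columns matched a sample. Gene positions come from a RefSeq table of that assembly without strands.

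The counts were fitted by edgeR 4.0.16 in R 4.3.3 (TMM, filterByExpr by population, quasi-likelihood test, Benjamini-Hochberg adjustment over 10939 genes), with all libraries in a single fit. Members below the filter were compared by two-sided exact permutation tests of mean CPM (scipy 1.17.1). Alternatives were DESeq2 1.42.0, its size factors, other filters, robust dispersion, a fit of 2 populations, the pig as a block, and leaving out each pig or library. Exchanging labels only within pigs in the exact permutation tests was added after seeing the data. The scripts were tested on simulated data. Libraries of 1 pig came from the same animal and their deviations from the population means were correlated (on average 0.105 within and -0.0261 between pigs). Every member was named, as was each other tetraspanin that passed the filter. Of each partner list up to 4 genes called in lrNK cells against blood were described, by mean CPM, and further called genes were named after their values were seen. The members and lists were chosen with earlier results of these data known. Intervals of ratios of counts cover counting error only. Protein and promoter sequences were not used here, and the result of 1 listed gene is not reported here.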

Additional observations from a re-analysis of the deposited data

Results flagged for a closer look

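In groups of 5 libraries, a library was noted when its gap to the nearest other library exceeded Dixon's 95% critical value. This was so in 4 of 46 groups, where chance alone would give about 2.3. *CD37* was at 311 CPM in the lrNK library of pig 3, beside 162 to 202 CPM in the other lrNK libraries, and *CD151* was at 12.2 CPM in the same library, beside 5.34 to 7.06 CPM. *TSPAN31* was at 46.3 CPM in the liver CD8α high library of pig 1, beside 25.7 to 30.9 CPM in the others. *TSPAN2* was at 7.31 CPM in the lrNK library of pig 5 and at 0 in the other lrNK libraries. The lrNK library of pig 3 was also the one with low *CXCR6* (86.2 CPM) and the liver CD8α high library of pig 1 the one with raised *CXCR6* (153 CPM), and their part in these values was not tested.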

How the results depend on the processing

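With the pig as a replicate block, 0 members were called in each of the 3 comparisons, as without it, and *CD53* in lrNK cells against blood turned from -0.0034 to 0.00073 on the log2 scale. The block changed no tetraspanin call. The same *CD53* value was 0.00903 with DESeq2's size factors in edgeR, 0.00932 with DESeq2 and 0.0188 with the stricter filter, all within its error. The number of members higher in lrNK cells than in liver CD8α high cells was 2 without a filter on low counts and 2 with DESeq2 (*CD9* and *TSPAN13* in both). Leaving out 1 pig or library gave 0 to 1 members higher against liver CD8α high cells and 0 to 1 against blood. *TSPAN13* passed the filter only in the 12 of these 20 fits that kept all 4 lrNK libraries with its counts, so its calls there (12 against liver CD8α high cells, and 1 against blood, without the lrNK library of pig 5, adjusted p = 0.037) are no sign of stability. With labels exchanged within pigs, an alternative chosen after seeing the data, its exact permutation p was 0.125 in both lrNK comparisons. *CD9* against liver CD8α high cells and *TSPAN31* against blood were called without the lrNK library of pig 3. *TSPAN2* was called in both lrNK comparisons without pig 5 or its lrNK library, where the lrNK population is at 0 counts and a fitted fold is no measured size. *TSPAN3*, *TSPAN5* and *TSPAN9* kept their calls under all 27 alternatives in both lrNK comparisons.

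Leave-outs that turned a sign did so for differences that were not called. Against blood, log2 fold changes of lrNK cells ranged from -0.306 to 0.0537 for *CD37*, -0.0587 to 0.0918 for *CD53*, -0.0166 to 0.693 for *CD151*, -5.95 to 0.18 for *TSPAN2* (the lowest from a fit with lrNK cells at 0), -0.20 to 0.16 for *TSPAN17* and -1.06 to 0.40 for *ROM1*, and the difference in mean CPM from -0.57 to 1.01 for *CD82*. Against liver CD8α high cells they ranged from -0.12 to 0.19 for *CD37*, -0.11 to 0.0161 for *CD53*, -0.24 to 0.10 for *CD63*, -0.34 to 0.11 for *CD151* and -0.29 to 0.30 for *TSPAN17*. Between both CD8α high populations they ranged from -0.224 to 0.0246 for *CD81*, -0.22 to 0.57 for *TSPAN9* and -0.16 to 0.25 for *TSPAN17*. The causes were not tested.

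With 5 pigs and at most 5680221 counts per library, *CD9*, *CD82*, *CD151* and *TSPAN13* rest on few counts, so differences smaller than several-fold were not detectable for them.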

Other observations

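Some tetraspanins below the filter on low counts differed between populations by their counts, and they were picked here after their values were seen, out of 51 two-sided exact permutation tests over 17 such genes, with no adjustment. *TSPAN32*, a tetraspanin of blood cells, had 28, 2, 9, 10 and 26 counts in blood, 9, 2, 7, 13 and 4 in liver CD8α high cells and 0, 3, 0, 0 and 0 in lrNK cells. The blood level was 20.8 times that of lrNK cells, with a counting interval of 6.86 to 103 times, and mean CPM differed at p = 0.0159 by the exact permutation test, and at p = 0.0238 between lrNK and liver CD8α high cells. Against blood and against liver CD8α high cells, DESeq2 gave an adjusted p of 0.00632 and 0.127, and edgeR without a filter 0.0557 and 0.218.

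*TSPAN6* was at 0 counts in all 5 lrNK libraries and had 42 counts in blood (exact permutation p = 0.0476, DESeq2 adjusted p = 0.023, edgeR without a filter 0.0324). With 0 replaced by 3 counts over the group, the ratio of blood to lrNK cells was 11.7. It was 7.75 without the blood library of pig 5, which held 19 of the counts. In liver CD8α high cells *TSPAN6* had 34 counts, a ratio of 7.79 to lrNK cells (5.01 without pig 3). This difference did not pass the threshold (exact permutation p = 0.167, DESeq2 adjusted p = 0.0737, edgeR without a filter 0.0656). The ratios leave out the error of the higher counts. *TSPAN12* was found in 5 of 5 liver CD8α high libraries, at 7, 2, 9, 23 and 9 counts, beside 0, 0, 0, 2 and 2 counts in blood (exact permutation p = 0.0238), while edgeR without a filter gave an adjusted p of 0.66. These genes rest on few counts. With labels exchanged only within pigs, which cannot give less than 0.0625, the exact permutation p was 0.125 for *TSPAN32* in both lrNK comparisons, 0.125 for *TSPAN6* against blood, 0.25 against liver CD8α high cells, and 0.0625 for *TSPAN12*.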
